A study of Amaranthus palmeri with 48 samples.

Results

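The response of Palmer amaranth leaves to chlorsulfuron was described in 12 of the 48 RNA-seq libraries of the series, as the change common to a susceptible and a resistant line. The 6 chlorsulfuron libraries and the 6 untreated libraries were those whose labels place them in batch 2, and line was held as a block in the comparison. Chlorsulfuron leaves came from the susceptible line (numbers 5, 6 and 7) and the resistant line (numbers 5, 7 and 8), and untreated leaves from the same lines and numbers. Palmer amaranth (Amaranthus palmeri) is a broadleaf weed with separate male and female plants, so seed-grown plants of a line are not genetically identical. Per the labels, plants were raised from seed in a growth chamber at 32 °C by day and 22 °C by night with 16 h of light, and were sprayed at a height of 10 to 12 cm with a sprayer set to 187 L per ha. Leaves were taken 6 h after treatment. The sources used here give neither the herbicide rate nor what the untreated plants received. The titles carry the prefix KSS for the susceptible line and KCTR for the resistant line. Otherwise the lines are known here only by the phenotype in the labels, and resistance to chlorsulfuron was not tested. The labels do not say whether libraries with 1 number came from 1 plant, so p-values measure the spread between these libraries.

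Chlorsulfuron is a sulfonylurea herbicide. It inhibits acetolactate synthase, the plastid enzyme that catalyses the first step shared by valine, leucine and isoleucine synthesis, so that treated tissue loses its own supply of these branched-chain amino acids. Growth of young tissue stops early, while visible injury takes days. Plants can be resistant through an altered enzyme or through faster breakdown of the herbicide, in which cytochromes P450 are commonly involved. The genes of these pathways could not be picked out here, because the count table gives identifiers that no source used here pairs with gene names. For the same reason the leaf label was not checked against marker genes. Genes are therefore given by identifier, without the transcript suffix of the table, and nothing is said of what they encode.

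The chlorsulfuron libraries held 48389548 to 62829178 counts and the untreated libraries 50566215 to 61752621. Between 19947 and 20408 gene models had a count in a chlorsulfuron library, against 19976 to 20186 in an untreated one. On the first principal component, which held 55.06% of the variance of the 2000 most variable genes, the chlorsulfuron libraries lay between 44.81 and 78.66 and the untreated libraries between -96.11 and -33.65. Susceptible libraries 6 and 7 were close to each other in both groups. CPM (counts scaled to a common library size) use TMM factors elsewhere, and total counts in this comparison of library pairs. The log2 of CPM plus 1 in libraries 6 and 7 correlated at 0.9954 after chlorsulfuron and 0.9951 untreated. No gene stood at 5 CPM or more in 1 of them with 0 counts in the other. In batch 1 the pair with these numbers had 12 such genes after 2,4-D, 18 after mesotrione and 5 untreated. Susceptible 6 and 7 after atrazine, also of batch 2, had 0 such genes and a correlation of 0.9953. Other batch 2 pairs also had 0 such genes (untreated resistant 5 and 7, and 5 and 8), but their log2 CPM correlated at 0.9843 and 0.9791. Susceptible 5 and 7 after atrazine had 0 such genes at a correlation of 0.9485, so a count of 0 does not by itself mark a close pair. Between susceptible 6 and 7 the chi-square per gene was 20 after chlorsulfuron and 25.2 untreated, above counting noise, so they are not 1 library deposited again. Whether both came from 1 plant was not tested, and if they did, the susceptible line was represented by fewer plants than libraries. Both were kept, and the counts of called genes are also given without number 7. Bulk RNA gives the share of each transcript in the leaf, so fewer cells of a type and less RNA per cell cannot be told apart.

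Most of the genes tested differed between chlorsulfuron and untreated leaves at 6 h. Of 19352 genes tested, 10513 were called (54.3%; edgeR quasi-likelihood test, Benjamini-Hochberg adjusted p under 0.05), 5321 of them higher after chlorsulfuron (27.5%) and 5192 lower (26.8%). Genes called higher had a median level of 39.1 CPM in chlorsulfuron leaves and 19.7 CPM in untreated leaves, and a median log2 change of 0.85 (quartiles 0.53 and 1.64, median SE 0.16). Genes called lower stood at 16.3 CPM in chlorsulfuron leaves and 33.7 CPM in untreated leaves, with a median log2 change of -1.07 (quartiles -1.70 and -0.66, median SE 0.19). The median over all tested genes was -0.00236. In 5619 genes (29% of those tested) all 6 chlorsulfuron libraries lay on 1 side of all 6 untreated libraries, among them 2826 of the genes called higher (53.1%) and 2786 of those called lower (53.7%). Without the susceptible libraries numbered 7, 8806 genes were called, 4501 higher and 4305 lower. When libraries were scaled by total counts alone, 6593 genes were called higher and 4120 lower (61.5% higher, against 50.6% with TMM), and the median over all genes moved to 0.15 on the log2 scale. TMM factors were 1.004 to 1.146 in the chlorsulfuron libraries and 0.878 to 0.981 in the untreated ones.

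**Figure D1:**
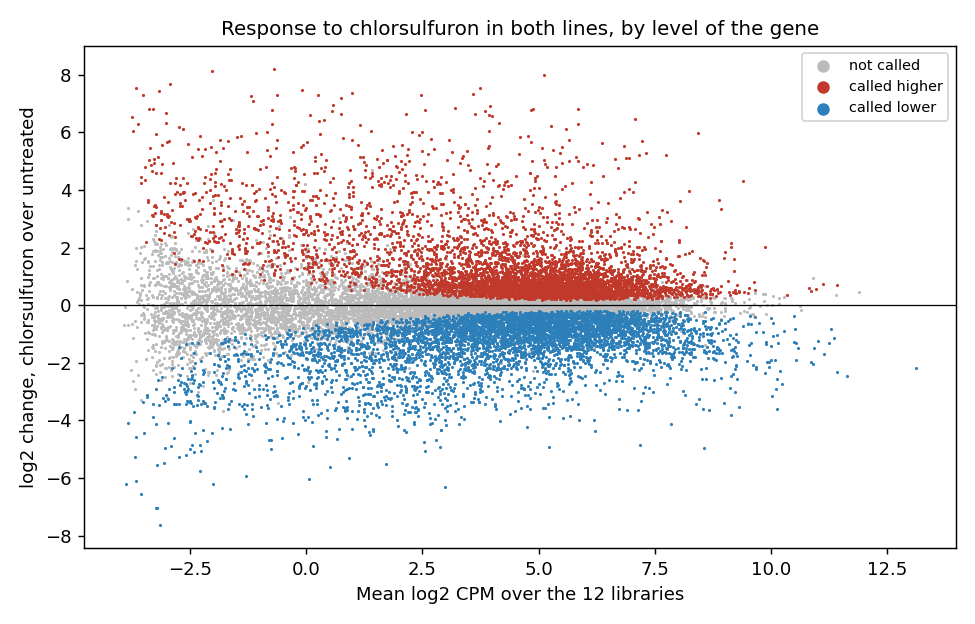
Each point is 1 of the 19352 tested genes, with its mean log2 CPM over the 12 libraries on the x axis and its log2 change, chlorsulfuron over untreated, on the y axis; red points were called higher, blue points called lower and grey points were not called. Called genes lie at every level, and the most abundant genes lie mostly below the line at 0.

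The changes called higher and lower were near equal in number but not in size. A change of at least 2-fold was seen in 5048 called genes (26.1% of those tested), 2262 higher and 2786 lower. At 4-fold or more there were 1061 higher and 952 lower. The order then parted, with 303 genes at least 16-fold higher against 83 at least 16-fold lower, and 56 at least 64-fold higher against 9 at least 64-fold lower. These are fitted folds, and those of genes with few counts on 1 side depend on the small count the fit adds. With genes averaging at least 1 CPM, 241 were at least 16-fold higher and 50 at least 16-fold lower. The count at least 16-fold lower was 229 without susceptible chlorsulfuron library 5, and the count at least 16-fold higher was 154 in the resistant line alone, where 105 were at least 16-fold lower.

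The share of genes called changed with their level. Among 2266 genes averaging under 1 CPM over the 12 libraries, 12.4% were called higher and 11.8% lower. At 1 to 10 CPM the shares were 18.9% and 25.1% of 4772 genes, at 10 to 100 CPM 33.1% and 28.8% of 10048, and at 100 to 1000 CPM 36.8% and 36% of 2201. Of the 65 genes averaging 1000 CPM or more, 9 were called higher (13.8%) and 44 lower (67.7%), and the lower set had a median log2 change of -1.91.

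**Figure D2:**
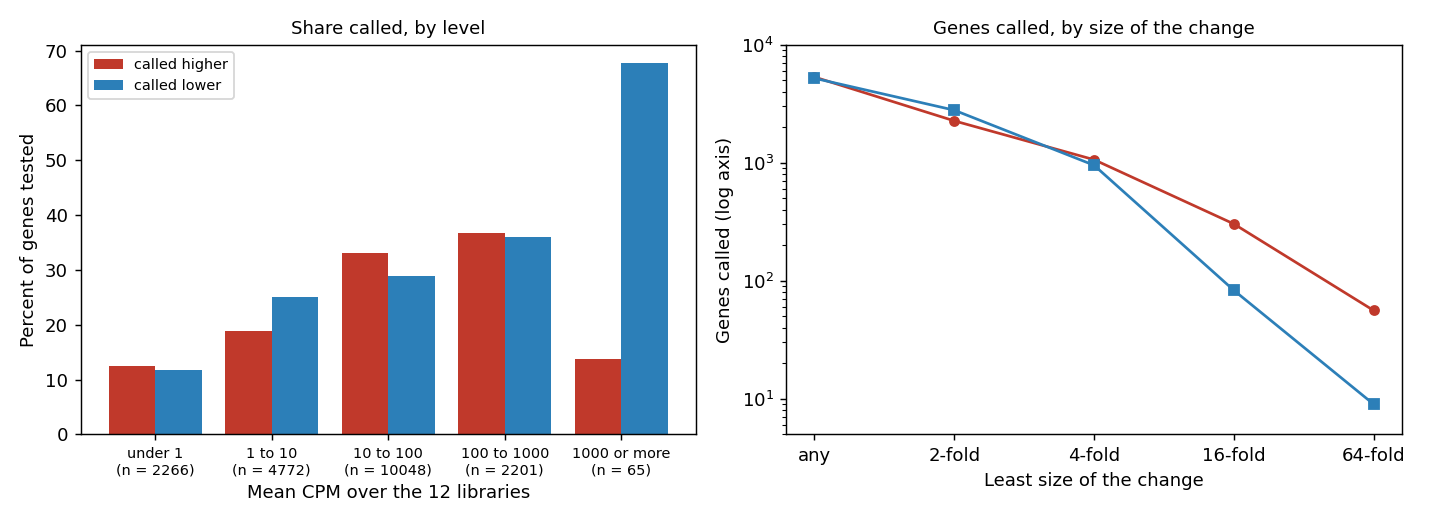
Left, bars give the percent of tested genes called higher (red) or lower (blue) by mean CPM over the 12 libraries; right, points give the number of genes called higher (red circles) or lower (blue squares) with at least the change on the x axis, on a log axis. Lower calls take 67.7% of the genes at 1000 CPM or more, and higher calls outnumber lower calls 303 to 83 at 16-fold or more.

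The list of the most abundant transcripts turned over. Of the 10 genes with the highest mean in chlorsulfuron leaves 6 were called higher and 1 lower, and 1 of them was also among the 10 highest of untreated leaves. All 10 highest genes of untreated leaves, which stood there at 3496 to 19330 CPM, were called lower after chlorsulfuron, with a median log2 change of -2.0. Of the 50 highest genes of chlorsulfuron leaves 24 were called higher and 12 lower, and 21 were shared with the 50 highest of untreated leaves. Of the 50 highest of untreated leaves, 41 were called lower and 4 higher, with a median log2 change of -1.90. Because each list was ranked on the libraries compared, the ranking itself favours higher calls in the chlorsulfuron list and lower calls in the untreated list, and these counts describe the lists.

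The same turnover showed in how the counts of a library were divided. The 10 most abundant genes of a library took 3.08 to 4.14% of its counts after chlorsulfuron and 5.46 to 6.96% in untreated leaves. Genes called higher took 40.36 to 47.76% of the counts in chlorsulfuron libraries (median 45.24%), against 18.84 to 20.83% in untreated libraries (median 19.94%). Genes called lower took 21.41 to 27.65% of the counts in chlorsulfuron libraries (median 24.17%), against 51.07 to 54.27% in untreated libraries (median 52.78%). These shares rest on the calls, so they measure how much of the leaf's polyadenylated RNA the called genes made up and carry no test.

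The 2 genes with the largest increase under the naming rule were AmaPaChr15Ag235100 and AmaPaChr04Ag065480. AmaPaChr15Ag235100 stood at 172 CPM (lowest), 740 CPM (median) and 1280 CPM (highest) in the 6 chlorsulfuron libraries, against 0.0711, 3.31 and 5.18 CPM in the 6 untreated libraries. Every chlorsulfuron library lay above every untreated one, and susceptible library 5 was the lowest of its group in both. The log2 change was 8.00 ± 0.86 (SE, edgeR adjusted p = 1.7e-05), a 256-fold increase, with 8.86 ± 1.21 in the susceptible line and 7.17 ± 1.12 in the resistant line (edgeR adjusted p of the difference = 1). AmaPaChr04Ag065480 had a lowest, median and highest level of 70.1, 206 and 408 CPM after chlorsulfuron, against 0.213, 1.19 and 1.63 CPM in untreated leaves. Its groups were also fully apart, with a log2 change of 7.55 ± 0.52 (SE, edgeR adjusted p = 9e-07), a 187-fold increase. The line estimates of this gene were 7.18 ± 0.72 in susceptible and 7.91 ± 0.75 in resistant leaves.

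The 2 genes with the largest decrease under the naming rule, which asks for 20 CPM in the higher group and 30 counts in the lower, both carry identifiers of chromosome 14. Genes with fewer counts had larger fitted decreases. AmaPaChr14Ag220820 had 0.0351, 1.55 and 3.01 CPM (lowest, median, highest) after chlorsulfuron, against 11.1, 66.1 and 489 CPM in untreated leaves. Untreated levels of this gene were spread over more than 1 order of magnitude, with the resistant libraries 5 and 7 at 259 and 489 CPM and susceptible library 7 at 11.1 CPM, yet none reached down to the chlorsulfuron libraries. Its log2 change was -6.31 ± 1.10 (SE, edgeR adjusted p = 0.00051), with -4.79 ± 1.26 in susceptible and -7.86 ± 1.44 in resistant leaves. AmaPaChr14Ag221180 had 0.114, 0.28 and 3.2 CPM after chlorsulfuron, against 10.7, 25.2 and 82 CPM in untreated leaves. The chlorsulfuron library at 3.2 CPM was susceptible 5, and the other 5 lay at 0.114 to 0.771 CPM. The log2 change was -5.51 ± 0.82 (SE, edgeR adjusted p = 0.00017).

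**Figure D3:**
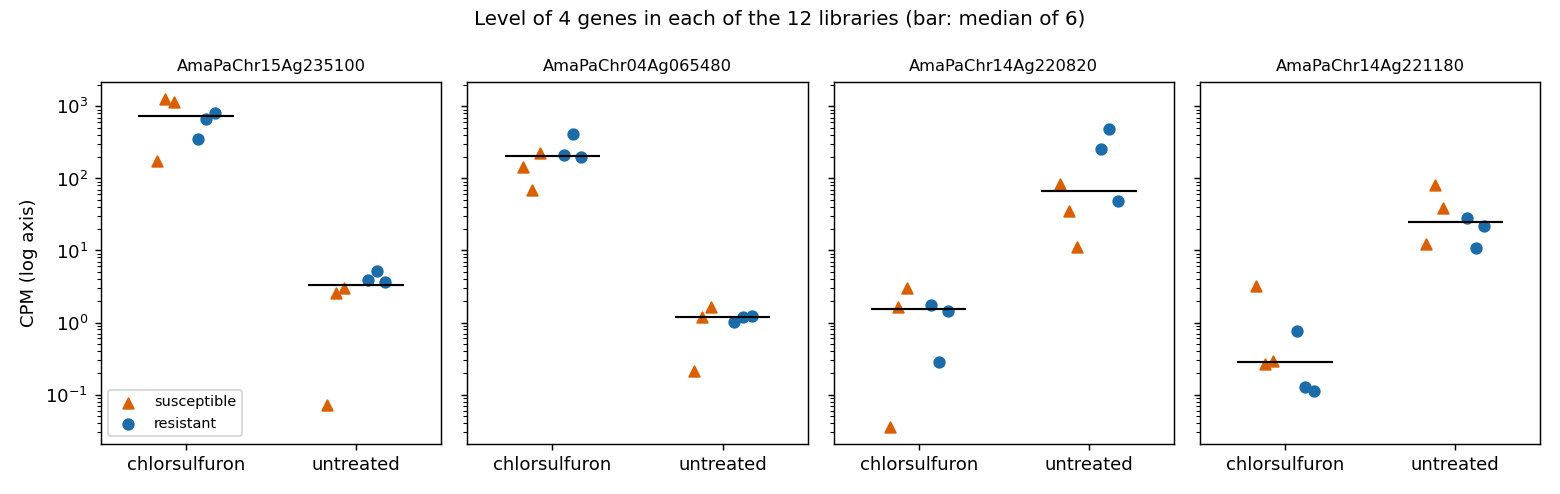
CPM on a log axis of the 2 genes most raised and the 2 most lowered under the naming rule, in each chlorsulfuron and untreated library; triangles are susceptible and circles resistant libraries, and bars mark the median of 6. No chlorsulfuron library overlaps an untreated one in any panel, and AmaPaChr15Ag235100 has medians of 740 and 3.31 CPM.

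Few genes went from no counts at all to a count. 10 genes had counts in all 6 chlorsulfuron libraries and 0 counts in all 6 untreated libraries, and 6 of these had enough counts to be tested. The reverse held for 6 genes, of which 4 were tested. The choice of these genes fixes their direction, so their calls are not counted. All were at low levels, with a highest mean of 0.466 CPM after chlorsulfuron in the first set and 0.461 CPM in untreated leaves in the second. Of the 7 tRNA models that passed the filter, 4 were called, a share near the 54.3% of all tested genes called. All 4 were lower after chlorsulfuron, where 26.8% of all tested genes were called lower, and 7 models are too few to read a direction.

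Each treated library was set against the untreated library of the same line and number, as 6 pairs. The log2 change was above 0 in all 6 pairs for 5053 genes (26.1% of those tested) and below 0 in all 6 for 5118 (26.4%). Of the genes called higher, 4563 (85.8%) were higher in 6 of 6 pairs and 703 (13.2%) in 5 of 6. Of the genes called lower, 4548 (87.6%) were lower in 6 of 6 pairs and 620 (11.9%) in 5 of 6. The calls were made on these same libraries, which favours agreement of the pairs, so these shares describe the called sets. The pairs shared a pattern but not its strength. Across the tested genes, the change in a pair correlated with the mean change of the other pairs at 0.773 (resistant 7) to 0.909 (susceptible 7), which describes the genes and carries no test, since genes do not vary independently. The slope on that mean was lowest in resistant pairs 5 and 7 (0.735 and 0.760) and susceptible pair 5 (0.818), 0.968 in resistant pair 8, and highest in susceptible pairs 6 and 7 (1.22 and 1.16). Genes more than 2-fold higher numbered 2430 in resistant pair 5 and 3442 in susceptible pair 6, the extremes of the 6, and genes more than 2-fold lower ran between 2812 in susceptible pair 5 and 4122 in susceptible pair 7. Slopes and library positions come from the same libraries, so the agreement below is built in and is not a separate observation. Untreated resistant libraries 5 and 7 were nearest to the chlorsulfuron side of the first principal component, at -37.54 and -33.65 where the other 4 untreated libraries lay at -96.11 to -75.87, and susceptible 5 was the chlorsulfuron library nearest to the untreated side, at 44.81.

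The spread between libraries of a line was larger after chlorsulfuron in the susceptible line and not in the resistant line. The median over genes of the SD of log2 CPM was 0.31 in chlorsulfuron and 0.20 in untreated susceptible leaves, and the SD was larger after chlorsulfuron in 67.4% of genes. Without the libraries numbered 5 these medians were 0.13 after chlorsulfuron and 0.12 untreated, with 52.6% of genes more spread after chlorsulfuron. Only numbers 6 and 7 remain there, which were close to each other in both groups, so this cannot assign the spread to number 5. In resistant leaves the median SD was 0.28 after chlorsulfuron and 0.31 untreated, and 47.3% of genes were more spread after chlorsulfuron. Genes are not independent, so no test was made, and the split by line was added after the data were seen.

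Pooling the lines called genes that neither line's 6 libraries called alone. Of the 10513 genes, 4566 were also called in both lines fitted separately, with a median absolute log2 change of 1.34. Another 2986 were called in the susceptible line and not in the resistant (median 0.72), 870 in the resistant and not in the susceptible (median 0.92), and 2091 in neither (median 0.52). A call in 1 line only does not show a difference between lines, which was tested as the line by treatment term. That term was called in 5 of 19352 genes (0.0258%), with 1017 genes at an unadjusted p under 0.05, and in DESeq2 in 153. About 1 in 20 genes would have an unadjusted p under 0.05 with no line difference, so the 1017 do not show differences by themselves. The fitted changes of the lines had opposite signs in 3 of the 10513 genes called in common (0.0285%). The median SE of the line difference over those called genes was 0.34 on the log2 scale. In simulated counts of this design, 34 of 100 genes given a 4-fold line difference were recovered and 3 of 100 given a 2-fold one.

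The 5 genes whose response differed between lines fell into several patterns, and 2 of them, AmaPaChr05Ag093240 and AmaPaChr03Ag060010, were outside the naming rule and are given because the count is small. AmaPaChr05Ag093240 had 78.7, 32.6 and 47.1 CPM in susceptible chlorsulfuron leaves and 0.193, 0.19 and 0.568 CPM in resistant chlorsulfuron leaves, while all 6 untreated libraries lay at 0.285 CPM or less. Its response was larger in the susceptible line by 7.71 ± 0.94 (log2, SE, edgeR adjusted p = 0.029). AmaPaChr16Ag245530 reached 1828, 3374 and 2993 CPM in susceptible and 2397, 2805 and 3392 CPM in resistant chlorsulfuron leaves, so that the treated levels overlapped. Its untreated levels did not, at 13, 14.5 and 18.8 CPM in susceptible and 108, 136 and 137 CPM in resistant leaves, and the response was larger in susceptible leaves by 2.97 ± 0.36 (log2, SE, edgeR adjusted p = 0.029).

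AmaPaChr03Ag048960 shared that pattern in part, with 24.5, 40.6 and 26.8 CPM in susceptible and 15.2, 20.6 and 16.1 CPM in resistant chlorsulfuron leaves, and untreated levels of 0.854, 0.619 and 1.08 CPM in susceptible and 4.09, 7.46 and 4.73 CPM in resistant leaves. The difference of its responses, susceptible minus resistant, was 3.49 ± 0.43 (log2, SE, edgeR adjusted p = 0.029). In the last pair the lines moved apart in opposite directions. AmaPaChr03Ag060010 averaged 51.9 CPM after chlorsulfuron and 22.8 CPM untreated in susceptible leaves, and 14.5 CPM after chlorsulfuron and 29.9 CPM untreated in resistant leaves (difference 2.23 ± 0.26, log2, SE, edgeR adjusted p = 0.029). AmaPaChr12Ag199250 averaged 9.46 CPM after chlorsulfuron and 11.9 CPM untreated in susceptible leaves, and 22.1 CPM after chlorsulfuron and 9.67 CPM untreated in resistant leaves (difference -1.53 ± 0.20, log2, SE, edgeR adjusted p = 0.039). Each of these 5 genes lost its call under most settings, 13 to 17 of 23. With 1 library left out, the call was lost in 9 to 11 of 12 fits, depending on the gene. The count of line differences ran between 0 and 14 in those fits. It was 0 without the susceptible libraries numbered 7 or 6, with the library number as a block, and in the fit of all 48 libraries.

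The genes called higher and lower were then followed through all 48 libraries, as the median over each set of log2 CPM minus the mean of the untreated batch 2 libraries. The chlorsulfuron and untreated libraries of batch 2 chose the sets. Chlorsulfuron libraries stood at 0.66 to 1.04 for the higher set and -1.15 to -0.85 for the lower set. In lactofen libraries of batch 3 the higher set stood at 0.95 to 1.30 and the lower set at -2.15 to -1.30. In 2,4-D libraries of batch 1 the values were 0.11 to 0.23 and -0.32 to -0.20, and in mesotrione libraries -0.07 to 0.07 and -0.14 to 0.09. Atrazine libraries of batch 2 had 0.40 to 0.85 and -1.22 to -0.47. Their untreated libraries are the same ones that chose the sets, so these values are not independent of that choice. Untreated libraries of the 3 batches lay between -0.17 and 0.09 in both sets. Lactofen inhibits protoporphyrinogen oxidase of the tetrapyrrole pathway, atrazine blocks electron transport at photosystem II, 2,4-D acts as a synthetic auxin, and mesotrione inhibits hydroxyphenylpyruvate dioxygenase, an enzyme of plastoquinone synthesis. The lactofen and 2,4-D libraries did not overlap the untreated libraries of any batch in either set, and the mesotrione libraries did.

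**Figure D4:**
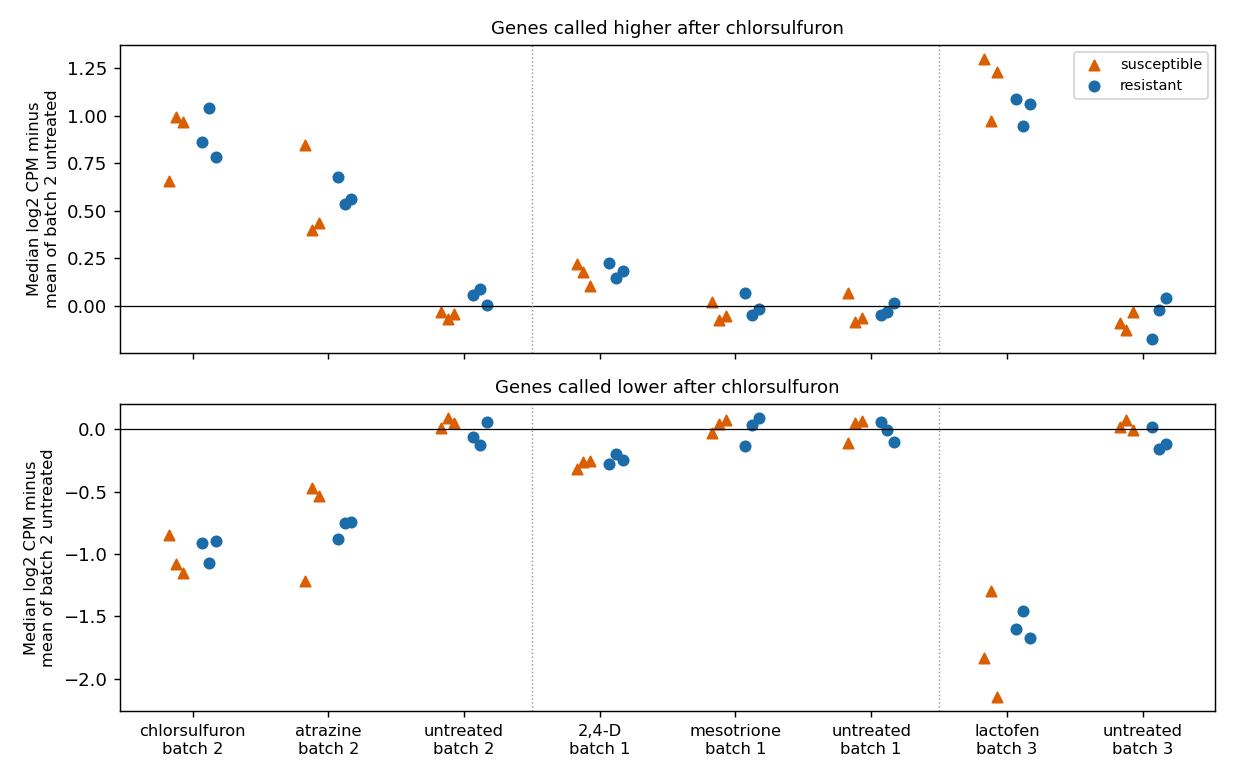
Each point is 1 of the 48 libraries, with the median over the genes called higher (top) or lower (bottom) after chlorsulfuron of log2 CPM minus the mean of the untreated batch 2 libraries; triangles are susceptible and circles resistant libraries, and dotted lines part the batches. Lactofen libraries lie at 0.95 to 1.30 and -2.15 to -1.30, chlorsulfuron libraries at 0.66 to 1.04 and -1.15 to -0.85, and mesotrione libraries lie among the untreated ones.

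The responses to the other herbicides were fitted with all 48 libraries and 20645 genes, as changes averaged over the lines. In that fit 9628 genes were called after chlorsulfuron (46.6%), 5278 higher (25.6%) and 4350 lower (21.1%), and CPM values below are on its scale. The lactofen response, against its own untreated leaves, held 13925 called genes (67.4%), 6948 higher (33.7%) and 6977 lower (33.8%). 4000 genes were called higher in both responses, which is 75.8% of the genes higher after chlorsulfuron and 57.6% of those higher after lactofen. Among all tested genes, 33.7% were higher after lactofen. 3440 genes were called lower in both, 79.1% of those lower after chlorsulfuron and 49.3% of those lower after lactofen, against 33.8% of all tested genes lower after lactofen. Opposite calls were fewer, with 265 genes higher after chlorsulfuron and lower after lactofen, and 187 the reverse. Across the 20645 genes the changes correlated at 0.691, as a description over genes that are not independent.

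**Figure D5:**
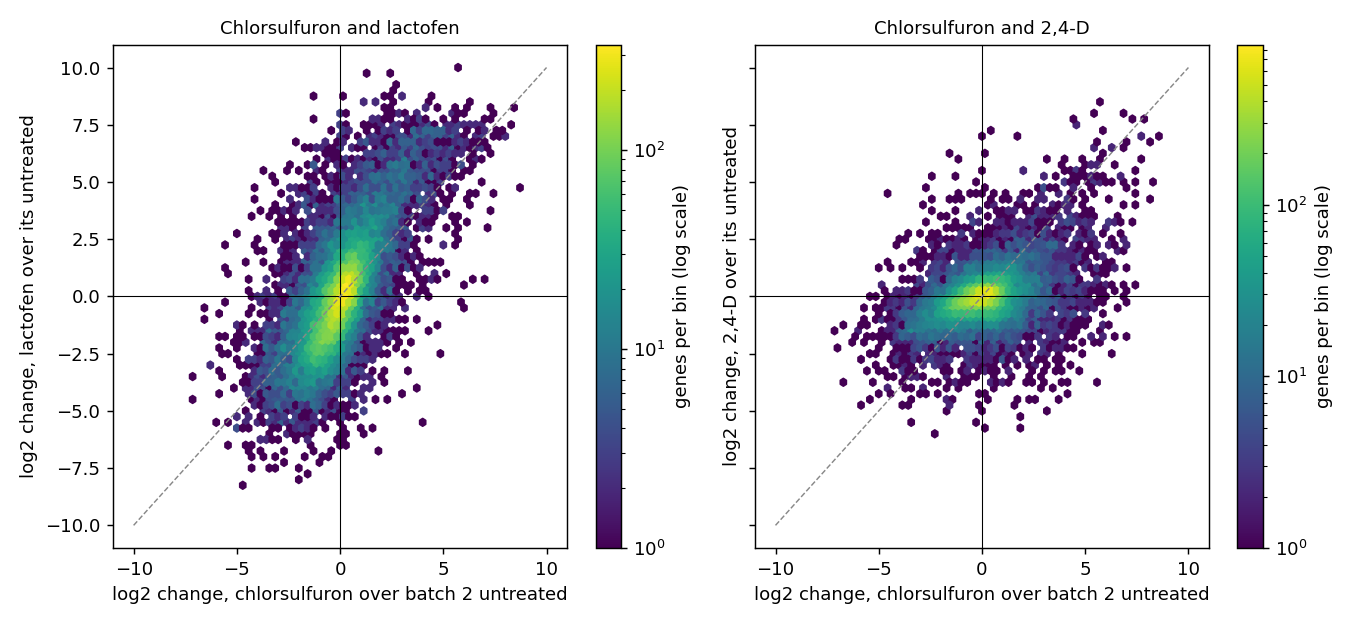
Hexagonal bins count genes by log2 change after chlorsulfuron over untreated batch 2 leaves (x axis) and after lactofen (left) or 2,4-D (right) over their own untreated leaves (y axis), with colour on a log scale and the dashed line at equal changes. The cloud rises along the dashed line for lactofen (slope 1.1) and lies flatter for 2,4-D (slope 0.289).

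The 2,4-D response was smaller, with 3350 genes called (16.2%), 1771 higher (8.58%) and 1579 lower (7.65%). Of the genes it raised, 1197 were also called higher after chlorsulfuron, which is 22.7% of the chlorsulfuron set and 67.6% of the 2,4-D set, where 25.6% of all genes were higher after chlorsulfuron. Of the genes it lowered, 669 were also called lower after chlorsulfuron, 15.4% of the chlorsulfuron set and 42.4% of the 2,4-D set, where 21.1% of all genes were lower after chlorsulfuron. Opposite calls were uneven, with 409 genes higher after chlorsulfuron and lower after 2,4-D, against 63 lower after chlorsulfuron and higher after 2,4-D. Of the genes called higher in the 12 libraries, 8.1% were lower after 2,4-D, near the 7.65% of all tested genes. Of those called lower there, 1.66% were higher after 2,4-D, against 8.58% of all tested genes. The mesotrione response had 14 called genes (0.0678%), 1 higher (0.00484%) and 13 lower (0.063%), of which 8 were also lower after chlorsulfuron and 1, higher after mesotrione, was lower after chlorsulfuron. The atrazine response had 10240 called genes (49.6%), 5486 higher (26.6%) and 4754 lower (23%), but it rests on the same 6 untreated libraries as the chlorsulfuron response, so the overlap of those responses is not given.

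The difference between responses was tested for each herbicide with its own controls. Chlorsulfuron and lactofen responses differed in 8253 genes (40%), with 4601 higher for chlorsulfuron (22.3%) and 3652 lower (17.7%). The 2 genes lowest for chlorsulfuron under the naming rule had fitted log2 changes of 8.72 and 6.93 after lactofen and were not called after chlorsulfuron (edgeR adjusted p = 0.46 and 0.92). AmaPaChr05Ag085850 had 0, 0.0738 and 0.192 CPM (lowest, median, highest) after chlorsulfuron and 0.0369, 0.159 and 0.377 CPM in batch 2 untreated leaves. It had 0.0519, 7.46 and 141 CPM after lactofen and 0, 0.097 and 0.442 CPM in batch 3 untreated leaves (difference -9.88 ± 1.86, log2, SE, edgeR adjusted p = 7.4e-05). AmaPaChr10Ag169160 stood at 4.76, 12.3 and 19.8 CPM after chlorsulfuron and 2.11, 6.2 and 52.3 CPM in batch 2 untreated leaves. Lactofen leaves had 807, 2040 and 3440 CPM of this gene and their untreated leaves 0.329, 19.7 and 34 CPM (difference -7.04 ± 1.03, log2, SE, edgeR adjusted p = 1.5e-06). The 2 genes on the other side, AmaPaChr14Ag213240 and AmaPaChr05Ag095060, were not called after chlorsulfuron (edgeR adjusted p = 0.47 and 0.2) and were also the genes that most separated the untreated leaves of batches 2 and 3. AmaPaChr14Ag213240 had 0.256 CPM at most in batch 2 untreated leaves and up to 163 CPM in a batch 3 untreated library, with a median of 0.652 CPM over the 6 of batch 3. Its difference of responses was 8.47 ± 2.34 (log2, SE, edgeR adjusted p = 0.0041) and lost its call without susceptible chlorsulfuron library 5 (7.18, edgeR adjusted p = 0.076). AmaPaChr05Ag095060 had 0.553 CPM at most in batch 2 untreated leaves and up to 104 CPM in a batch 3 untreated library, with a median of 5.52 CPM in batch 3 (difference of responses 6.79 ± 1.71, log2, SE, edgeR adjusted p = 0.0019).

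Chlorsulfuron and 2,4-D responses differed in 4561 genes (22.1%), 2707 higher for chlorsulfuron (13.1%) and 1854 lower (8.98%). AmaPaChr13Ag205100 moved in opposite directions. It had 0.0349, 0.0857 and 0.187 CPM after chlorsulfuron and 0.785, 2.21 and 6.89 CPM in batch 2 untreated leaves, against 40.3, 80 and 117 CPM after 2,4-D and 0.962, 3.68 and 6.31 CPM in batch 1 untreated leaves. The difference was -9.06 ± 0.84 (log2, SE, edgeR adjusted p = 1.1e-08), and the chlorsulfuron change itself -4.60 ± 0.62 (edgeR adjusted p = 3e-07). AmaPaChr15Ag227060 had the same order, at 0.0369, 0.15 and 0.418 CPM after chlorsulfuron and 0.128, 0.758 and 3.34 CPM untreated, against 22.4, 46.1 and 61 CPM after 2,4-D and 0.79, 1.87 and 3.97 CPM untreated (difference -7.33 ± 0.94, log2, SE, edgeR adjusted p = 1.5e-06). On the other side, AmaPaChr05Ag083040 had 12.6, 35.4 and 139 CPM after chlorsulfuron and 0.678, 2.49 and 7.8 CPM untreated. Its levels were 0.0844, 0.248 and 0.668 CPM after 2,4-D and 0.226, 0.375 and 26.4 CPM in batch 1 untreated leaves, 1 of which stood far above the median (difference 6.99 ± 1.64, log2, SE, edgeR adjusted p = 0.0021). AmaPaChr04Ag071310 had 9.78, 44.6 and 69.9 CPM after chlorsulfuron and 0.377, 1.24 and 4.24 CPM untreated, against 0, 0.122 and 0.571 CPM after 2,4-D and 0.0593, 0.207 and 5 CPM untreated (difference 6.85 ± 1.55, log2, SE, edgeR adjusted p = 0.0014).

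Chlorsulfuron and mesotrione responses differed in 6816 genes (33%), 3847 higher for chlorsulfuron (18.6%) and 2969 lower (14.4%). AmaPaChr13Ag207740 had 9.75, 23 and 59.9 CPM after chlorsulfuron and 0, 0.0959 and 0.516 CPM in batch 2 untreated leaves, while mesotrione leaves had 0, 0.307 and 0.915 CPM and their untreated leaves 0.101, 0.161 and 1.5 CPM (difference 7.46 ± 1.04, log2, SE, edgeR adjusted p = 2.7e-06). AmaPaChr02Ag035910 had 0.0369, 0.0706 and 0.896 CPM after chlorsulfuron and 1.1, 10.4 and 23.9 CPM untreated, while mesotrione leaves had 2.6, 19.1 and 44 CPM and their untreated leaves 2.78, 7.55 and 32 CPM (difference -6.92 ± 1.39, log2, SE, edgeR adjusted p = 0.00028). The other two genes of this comparison, AmaPaChr04Ag065480 (7.42 ± 0.99, edgeR adjusted p = 1.5e-06) and AmaPaChr14Ag221180 (-6.03 ± 1.33, edgeR adjusted p = 0.00069), are also among the 4 genes named for the chlorsulfuron response.

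Chlorsulfuron and atrazine leaves, both of batch 2, were compared directly, without the untreated libraries. They differed in 7943 genes (38.5%), 4126 higher after chlorsulfuron (20%) and 3817 lower (18.5%). With total counts as the scaling, 5459 were higher and 2552 lower (68.1% higher, against 51.9%). AmaPaChr01Ag022720 had 651, 988 and 1800 CPM after chlorsulfuron, against 23.5, 32.3 and 129 CPM after atrazine, with 7.63, 20.6 and 32.4 CPM in untreated leaves of the batch (difference 4.65 ± 0.54, log2, SE, edgeR adjusted p = 2.4e-08). AmaPaChr15Ag235100 had 157, 705 and 1200 CPM after chlorsulfuron, against 2.7, 19.4 and 61.9 CPM after atrazine (difference 5.13 ± 0.73, log2, SE, edgeR adjusted p = 8.9e-07). In both genes every chlorsulfuron library lay above every atrazine library. AmaPaChr08Ag136970 had 16, 21.9 and 30.4 CPM after chlorsulfuron and 1440, 1790 and 2550 CPM after atrazine, with 6.33, 16.2 and 45.4 CPM in untreated leaves (difference -6.39 ± 1.06, log2, SE, edgeR adjusted p = 1.3e-05). AmaPaChr09Ag154310 had 2.74, 4.8 and 5.51 CPM after chlorsulfuron and 203, 330 and 573 CPM after atrazine, with 1.17, 3.15 and 9.59 CPM in untreated leaves (difference -6.20 ± 0.94, log2, SE, edgeR adjusted p = 2.5e-06). Neither of these last genes was called between chlorsulfuron and untreated leaves (edgeR adjusted p = 0.76 and 0.74). Untreated leaves of batches 1 and 3 had at most 0.385 and 0.371 CPM of AmaPaChr08Ag136970. For AmaPaChr09Ag154310 they had at most 0.846 and 0.216 CPM, so both genes stood higher in untreated batch 2 leaves. Whether reads of atrazine libraries are among the counts of the other batch 2 libraries was not tested.

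The 4 genes named for the chlorsulfuron response behaved differently across the herbicides. AmaPaChr15Ag235100 had medians of 505 CPM after lactofen and 5.78 CPM in its untreated leaves (log2 change 7.11 ± 0.80, edgeR adjusted p = 1.3e-09), and 111 CPM after 2,4-D and 1.03 CPM untreated (6.72 ± 0.79, edgeR adjusted p = 1.4e-07). The chlorsulfuron change was 8.07 ± 0.84 in the same fit, and it exceeded the lactofen change by 0.96 ± 0.88 and the 2,4-D change by 1.35 ± 0.89, neither called (edgeR adjusted p = 0.41 and 0.3), which does not show that the responses were alike. Mesotrione leaves had a median of 2.44 CPM (1.21 ± 0.66, edgeR adjusted p = 0.8). AmaPaChr04Ag065480 had medians of 673 CPM after lactofen and 3.81 CPM untreated (7.29 ± 0.80), and 256 CPM after 2,4-D and 1.57 CPM untreated (7.08 ± 0.80), both called (edgeR adjusted p = 7.2e-10 and 5.3e-08). Beside a chlorsulfuron change of 7.60 ± 0.82, the atrazine change was 3.89 ± 0.70, against the same untreated libraries, and chlorsulfuron leaves exceeded atrazine leaves by 3.71 ± 0.68 (edgeR adjusted p = 4e-05).

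The lowered pair parted from each other. AmaPaChr14Ag221180 had a median of 14.5 CPM after lactofen and 29.8 CPM in its untreated leaves (log2 change -0.33 ± 0.85, edgeR adjusted p = 0.75), and the chlorsulfuron response was lower than the lactofen response by -5.17 ± 1.31 (edgeR adjusted p = 0.0018). After atrazine its median was 0.452 CPM, and chlorsulfuron and atrazine leaves differed by -0.00381 ± 0.88 on the log2 scale (edgeR adjusted p = 1). AmaPaChr14Ag220820 fell after lactofen, with medians of 7.39 CPM treated and 125 CPM untreated (-3.06 ± 0.98, edgeR adjusted p = 0.0061), and its difference of -3.19 ± 1.32 between the chlorsulfuron and lactofen responses was not called (edgeR adjusted p = 0.052). After 2,4-D it had a median of 23.7 CPM, against 41.9 CPM untreated (-1.73 ± 0.93, edgeR adjusted p = 0.22), and the chlorsulfuron response was lower than that by -4.52 ± 1.35 (edgeR adjusted p = 0.014).

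The untreated leaves of batch 2 were set against those of the other batches, because the herbicide comparisons above span batches. Untreated leaves of batches 2 and 1 differed in 549 genes (2.66%), 259 higher in batch 2 (1.25%) and 290 lower (1.4%), and those of batches 2 and 3 in 5636 (27.3%), 2761 higher in batch 2 (13.4%) and 2875 lower (13.9%). Whether counts of untreated batch 2 libraries include reads from the other libraries of their batch was not tested. The split for batch 3 turned with the scaling, to 5489 higher and 1580 lower with total counts (77.6% higher, against 49%). The count for batch 1 ranged from 283 to 556 when 1 library of the 12 was left out, and was 301 without the susceptible libraries numbered 7. When the chlorsulfuron libraries were set against the untreated leaves of batch 1, 10169 genes were called and 79.6% of the 10513 were among them, 10 called genes having the opposite direction. Against those of batch 3, 10812 were called, with 73.7% of the 10513 among them and 121 of opposite direction. AmaPaChr16Ag241820 and AmaPaChr00Ag263060 differed between batches and were not called after chlorsulfuron (edgeR adjusted p = 0.79 and 0.93). AmaPaChr16Ag241820 had 0.636, 1.22 and 4.17 CPM in batch 2 and 32.9, 54 and 135 CPM in batch 1 untreated leaves (difference -5.24 ± 0.56, log2, SE, edgeR adjusted p = 3.3e-08). AmaPaChr00Ag263060 had 96.2, 125 and 128 CPM in batch 2 and 1830, 2370 and 8570 CPM in batch 1 (difference -4.86 ± 0.32, log2, SE, edgeR adjusted p = 1.1e-13). Between batches 2 and 3, AmaPaChr13Ag208800 had 8.93, 31.4 and 59.4 CPM in batch 2 and 0.865, 1.42 and 5 CPM in batch 3 untreated leaves (difference 3.81 ± 0.55, log2, SE, edgeR adjusted p = 4.2e-06), and was lower after chlorsulfuron, at 3.38, 6.05 and 16.2 CPM (-2.0 ± 0.51, edgeR adjusted p = 0.0014). AmaPaChr03Ag060620 had 5.12, 22.6 and 40.2 CPM in batch 2 and 0.357, 0.903 and 5.74 CPM in batch 3 (difference 4.00 ± 0.67, log2, SE, edgeR adjusted p = 3.6e-05).

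The response was spread over the genome, as far as the chromosome number in an identifier shows it. Over chromosomes 1 to 17 the share of tested genes called ran between 49.2% (chromosome 10) and 57.9% (chromosome 17), around the 54.3% of all genes. Of the 123 tested identifiers with chromosome number 00, 48% were called, 9.76% higher and 38.2% lower. Neighbouring identifiers moved together to a small degree. After a gene called higher, the next tested identifier was called higher in 29.9% and lower in 26.4% of cases. After a gene called lower, the next one was called higher in 27.1% and lower in 29.1%, and over all such pairs 27.8% were higher and 26.9% lower. The log2 changes of the 15853 pairs of consecutive identifiers correlated at 0.0799, as a description over genes.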

How the data were processed

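The deposited values, per the labels and the table itself, are unscaled whole-number counts of reads, with a row per gene model and a column per library. They come from stranded polyA libraries read as 150 bp pairs. Per the submitters' processing notes, the tools were Trimmomatic, FastQC, STAR and DESeq2, with versions and roles not given there. The build, annotation and strand setting are likewise not given in the sources used here. Of the counts above 0 in the 12 libraries, 98.37% were even, so a fragment usually added 2 counts. Reads of near-identical, overlapping or antisense genes may be split by the counting, and such genes are uncertain.

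The counts were tested with the quasi-likelihood test of edgeR 4.0.16 in R 4.3.3 (TMM factors, default filter on low counts, robust dispersions). Line and treatment were the terms in the 12 libraries (9 residual degrees of freedom, square root of the common dispersion 0.386), with the line by treatment term added for the line difference. Comparisons with other herbicides and batches used 16 group means over all 48 libraries (32 residual degrees of freedom). Genes were called at an adjusted p under 0.05. CPM values use TMM factors, except in the comparison of library pairs, which used total counts. The table lists 26353 gene models, 24873 mRNA and 1480 tRNA; a line that names no gene held 0 counts.

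The members and lists were chosen with earlier results of these data known. Named genes were the 2 called genes highest and the 2 lowest in log2 change per comparison. They needed a mean of 20 CPM in the higher group, 30 counts in the lower and, for the common response, no overlap of libraries. The planned lists by product name could not be applied. Numbers in the titles recur in treated and untreated groups. Deviations of same-numbered libraries from their group means correlated at 0.142 to 0.528 in the 6 pairs. Those of differently numbered libraries correlated at -0.372 to -0.0399 in resistant and -0.555 to 0.447 in susceptible leaves. Whether same-numbered libraries came from 1 plant was not tested. Same-numbered libraries were set against each other only in the description by pairs. The main fits did not include the number, and a fit with the number as a block was an alternative. In susceptible leaves, treated library 6 correlated more with untreated library 7 (0.447) than with untreated library 6 (0.221).

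Alternatives were other scalings and filters, fragment counts, DESeq2 1.42.0, other sets of libraries and controls, and leaving out each library. On simulated counts of the 12 libraries, the common response test recovered 72 of 100 genes changed 4-fold and 48 of 100 changed 2-fold, and called 3 of the unchanged genes among 19351. Only 100 genes were changed at each of these folds, where 54.3% of tested genes were called in the data. Because the adjusted p depends on the share of genes changed, these recoveries do not measure recovery of the common response in the data.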

Additional observations from a re-analysis of the deposited data

Results flagged for a closer look

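In AmaPaChr14Ag221180, lowered by chlorsulfuron, susceptible chlorsulfuron library 5 stood apart at 3.2 CPM, where the other 5 chlorsulfuron libraries lay at 0.114 to 0.771 CPM. Of 41 groups of 6 libraries tested for a lone extreme value, 1 passed Dixon's 95% critical value, and chance passes about 1 in 20. The same library had the lowest position on the first principal component among the chlorsulfuron libraries, at 44.81.

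The response differed between the lines in 5 genes by the line by treatment term of edgeR, in the main fit. Each of them lost its call under 13 to 17 of 23 other settings. The differences, susceptible minus resistant on the log2 scale, were 7.71 in AmaPaChr05Ag093240, 3.49 in AmaPaChr03Ag048960, 2.97 in AmaPaChr16Ag245530, 2.23 in AmaPaChr03Ag060010 and -1.53 in AmaPaChr12Ag199250. In AmaPaChr05Ag093240 the chlorsulfuron levels differed between the lines, and in AmaPaChr16Ag245530 the untreated levels did.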

How the results depend on the processing

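The count of genes changed by chlorsulfuron, 10513, stayed within 1.5 times under 26 of 28 settings. The exceptions were the resistant libraries alone, with 5551 genes (2710 higher and 2841 lower), and asking for a 2-fold change as well, with 5048. It was 9627 to 10818 when 1 library was left out, 11222 in DESeq2, and 11021 with the replicate number as a block, which held 96.1% of the 10513. The block changed no call of the 4 genes named for this response, which kept direction and call under all 27 settings (edgeR and DESeq2 adjusted p at most 0.03). The 10 most abundant genes of untreated leaves had 8 to 10 lower calls under these settings. Genes at least 16-fold lower numbered 180 and 294 against untreated leaves of batches 1 and 3.

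The count of line differences, 5, was the least stable. It was 153 in DESeq2, 2 with all batch 2 libraries in the fit, 0 with the replicate block, 0 in the 48-library fit, 0 without the susceptible libraries numbered 7 and 0 without those numbered 6 (a setting added after the data were seen). It was 0 to 14 with 1 library left out. At 0 calls, 526 to 1285 genes had an unadjusted p under 0.05. About 1 in 20 tested genes would have one with no line difference, so these counts show no further differences. The differences between untreated leaves of batches 2 and 1, 549, became 334 with total counts, 1038 in DESeq2, 301 without the susceptible libraries numbered 7, and 283 to 556 with 1 library left out, settings added later. The other comparisons of the 48 libraries stayed within 1.5 times in their count of calls, though the split between batches 2 and 3 turned with total counts (77.6% higher in batch 2, against 49%). No named gene changed direction under any setting run. The causes were not tested.

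Genes averaging under 1 CPM, where counts are fewest, were called higher in 12.4% and lower in 11.8%; depth itself was not varied. The line difference rests on 3 libraries per group, and the simulated recovery of 4-fold line differences was 34%.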

Other observations

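Levels in the other batch 2 leaves were read for the 11 genes that reached 50 CPM after atrazine and stayed under 1 CPM in the untreated leaves of batches 1 and 3, a set chosen after the values were seen. In chlorsulfuron leaves these genes stood at 1.17 to 57% of their atrazine level (median 7.48%, median level 7.86 CPM). In untreated batch 2 leaves they stood at 0.999 to 3.95% of it (median 1.64%), with a median level of 1.19 CPM, where the untreated leaves of batches 1 and 3 had 0.539 CPM. By library, the median over these genes was 3.95% in untreated resistant library 7 and 0.768 to 1.29% in the other 5 untreated libraries of batch 2. For 88 genes chosen likewise on lactofen, the untreated leaves of batch 3 stood at 0.298 to 18.1% of the lactofen level (median 0.724%).

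Both genes that were most raised in batch 2 untreated leaves over those of batch 1 were abundant after atrazine, the other herbicide of batch 2. Whether reads of atrazine libraries are among the counts of the untreated libraries of the batch was not tested. AmaPaChr08Ag147450 had 11.5, 19.7 and 80 CPM (lowest, median, highest) in untreated batch 2 leaves and 0.356, 1.18 and 2.71 CPM in those of batch 1, with 464, 601 and 1020 CPM after atrazine (difference of the untreated leaves 4.36 ± 0.86, log2, SE, edgeR adjusted p = 0.0022). AmaPaChr08Ag145580 had 31.9, 39 and 188 CPM in untreated batch 2 leaves and 1.12, 5.99 and 13.3 CPM in those of batch 1, with 1580, 1930 and 3030 CPM after atrazine (difference 3.14 ± 0.70, log2, SE, edgeR adjusted p = 0.0076).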
